A study of Mus musculus with 9 samples.

Results

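Fkbp5, Tsc22d3, Sgk1, Zbtb16, Pdk4, Cdkn1a, Errfi1, Klf9, Mt1 and Mt2 are genes that glucocorticoid hormones are known to raise in many tissues. They were followed here across RNA sequencing libraries of mouse spinal cord. The set was drawn up by name, with the group differences in these libraries already known. Their differences between groups are therefore given as a description, and no p-value of theirs supports a statement. The 10 genes are among 40879 in the deposited tables, and all 10 were among the 18245 genes with enough counts to be tested. The study had 9 libraries from male mice, 3 in each of 3 groups, and its title links the receptor ACVR1 to neuropathic pain. The sham group had the control operation. The SNI group carried SNI, a name that the labels do not spell out and that in pain research usually stands for spared nerve injury. The SNI+LDN193189 group, also called the compound group here, carried the same injury and received LDN193189, a small-molecule inhibitor of bone morphogenetic protein type I receptors, among them ACVR1. No source used here gives the strain, genotype, age, cord segment, side or time after injury, nor the dose, route, vehicle or hour of treatment. The labels call replicates separate biosamples without naming animals, so p-values measure the spread between these samples only, and that spread may be technical. RNA came from whole cord, although the protocol text speaks of cell lines, and in such bulk samples fewer cells of a type and less RNA per cell cannot be told apart.

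Glucocorticoids, corticosterone in the mouse, leave the adrenal cortex in a daily rhythm and in bursts during stress, and they cross into the cord. Inside a cell they bind the glucocorticoid receptor, encoded by Nr3c1, which is held by heat shock proteins until the hormone arrives and then moves to the nucleus and binds DNA at short palindromic elements. Its direct targets include brakes on the receptor itself, inhibitors of inflammatory transcription factors, kinases, fuel-switching enzymes and metal-binding proteins, and in the nervous system many of them are strongly induced in astrocytes and oligodendrocytes. Several also answer other inputs, such as metals and oxidants for the metallothioneins and p53 for Cdkn1a.

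Libraries held 33432776 to 37190467 counts. Of the genes with a count in a library, 70.7% to 71.8% had an even number, and the reason was not tested. Levels are in CPM, read counts over a common library total adjusted by TMM factors (0.984 to 1.02), or in the deposited FPKM, which also divides by gene length. A log2 fold change is a difference of fitted levels between groups, with its standard error (SE). Sprr1a, a gene of injured neurons, read 0.161 to 0.235 CPM in the sham libraries and 6.62 to 23.0 CPM in the SNI libraries. In the compound group it read 6.38 and 17.4 CPM in replicates 1 and 2 but 0.688 CPM in replicate 3, which in this gene stood near sham. SNI+LDN193189 replicate 3 is also the library that leads most results below, and these are given with and without it. Summed markers of neurons (7846 to 9275 CPM), oligodendrocytes (23877 to 27892 CPM) and astrocytes (5706 to 6788 CPM) were high in every library, as spinal cord has them. Summed nerve root markers ran from 391.7 to 949 CPM in SNI, from 842 to 1947 CPM in SNI+LDN193189 and from 937 to 6114 CPM in sham. Summed muscle markers were 713 CPM in sham replicate 1 against 79.7 to 112 CPM elsewhere. Most of the sum in SNI and SNI+LDN193189 was the listed marker Pvalb, at means of 84.7 and 94.1 CPM. The other muscle markers averaged at most 1.07 CPM in SNI (Actn3) and 2.79 CPM in SNI+LDN193189 (Acta1).

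All 10 genes had a higher fitted level in SNI+LDN193189 than in SNI, by 0.25 to 1.64 on the log2 scale with a median of 0.45. Over all genes tested the median was -0.00075, and 49.8% of genes were above 0. In 7 of the 10 genes every SNI+LDN193189 library lay above every SNI library, an arrangement that 5.71% of all genes tested showed. The exceptions were Zbtb16, Pdk4 and Klf9. None of the 10 was called by the edgeR quasi-likelihood test at an adjusted p under 0.05. That test called 1 gene of all those tested, or 0.00548%. By unadjusted p under 0.05 it marked 5 of the 10 (Fkbp5, Tsc22d3, Sgk1, Errfi1 and Mt2), against 1.69% of all genes marked higher. DESeq2, run as an alternative, called Tsc22d3 (adjusted p = 0.0494) among 6 genes in all. Among cell type markers in this contrast, 6 of 8 endothelial markers were lower, 3 of them at an unadjusted p under 0.05, with summed levels of 357 to 390 CPM in the compound group and 365 to 405 CPM in SNI. All 4 red cell markers tested were higher, with summed levels of 128 to 282 CPM against 110 to 154 CPM. Higher too were 8 of 9 nerve root markers (median 1.15), 7 of 8 muscle markers (1.66) and 8 of 10 meningeal markers (0.24). Apart from Pvalb, the muscle markers were low, with means of at most 1.07 CPM in SNI and 2.79 CPM in the compound group. No nerve root, muscle or meningeal marker had an unadjusted p under 0.05. The part of all these markers in the result was not tested. As the 10 genes were chosen on this contrast, their counts describe the choice and nothing is read from them.

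**Figure D1:**
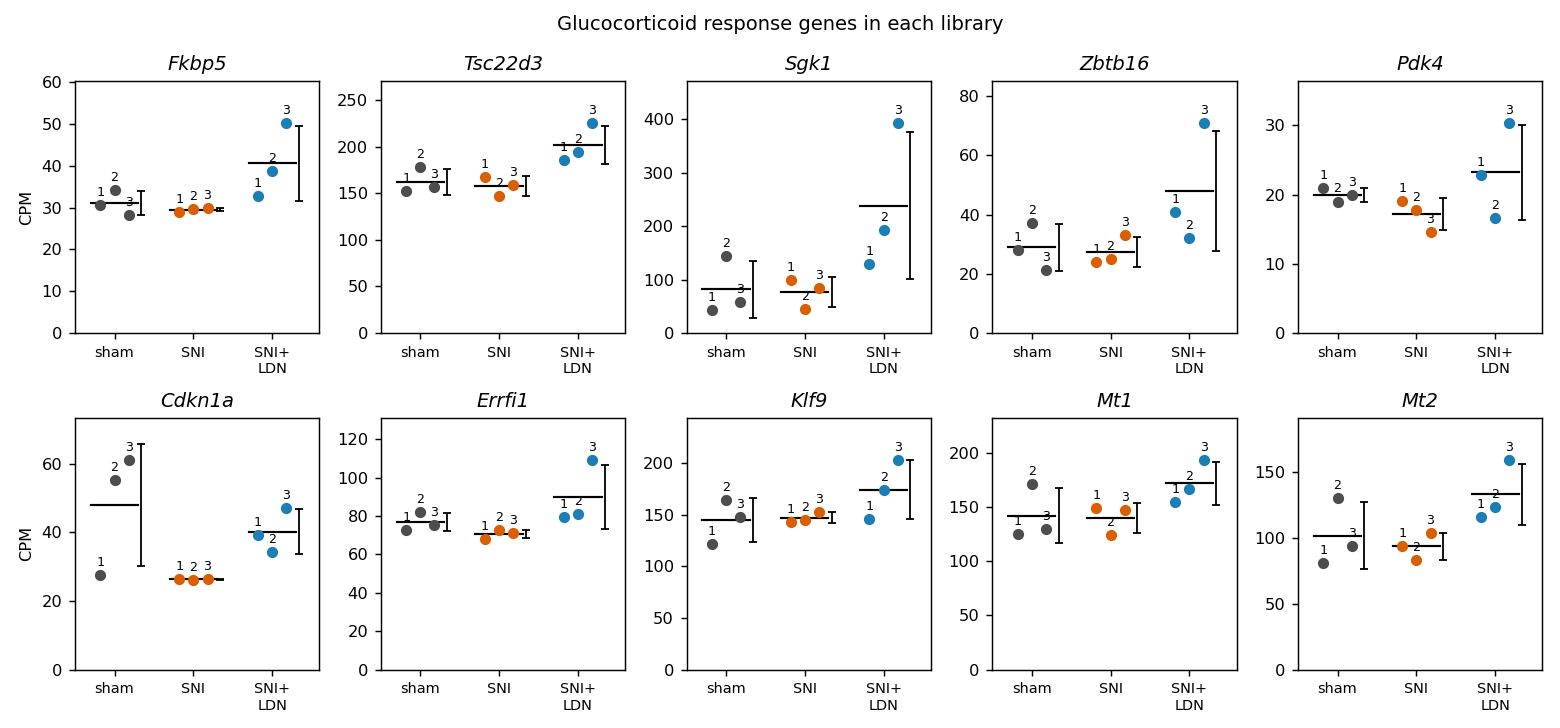
Level of each of the 10 glucocorticoid response genes in CPM (vertical axes, each starting at 0) in the 9 libraries, grouped as sham, SNI and SNI+LDN193189 (SNI+LDN on the axis). Points are single libraries with their replicate number, horizontal lines are group means and bars the SD (n = 3). SNI+LDN193189 replicate 3 is the highest of its group in all 10 panels.

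Per unit of gene length the metallothioneins were the most abundant of the set. Averaged over the 9 libraries, Mt2 stood at 198 FPKM (148 to 287) and Mt1 at 120 FPKM (98.9 to 153), and their ranges overlapped. A middle group followed with Tsc22d3 at 41.5 FPKM (35.0 to 53.6), Klf9 at 34.6 FPKM (27.5 to 45.2) and Sgk1 at 31.7 FPKM (10.6 to 94.4). Errfi1 at 23.6 FPKM (20.0 to 32.5) and Cdkn1a at 18.8 FPKM (12.8 to 30.8) came next, then Fkbp5 at 8.69 FPKM (7.38 to 12.9), Pdk4 at 5.84 FPKM (4.28 to 8.78) and Zbtb16 at 4.22 FPKM (2.64 to 8.59). Ranges of neighbours in this order overlapped in each pair but Mt1 and Tsc22d3. The highest library exceeded the lowest 9.09-fold for Sgk1 and only 1.53-fold for Tsc22d3, with a median of 1.87-fold.

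The hormone's receptors, upstream of the set, did not have this order of libraries. Nr3c1, the glucocorticoid receptor, read 106, 109 and 115 CPM in sham replicates 1 to 3, 108, 111 and 104 CPM in SNI and 106, 103 and 99.8 CPM in SNI+LDN193189. Its lowest value was in SNI+LDN193189 replicate 3, the library where the target genes were highest. Nr3c2, the mineralocorticoid receptor, which binds the same hormone, read 51.2, 52.6 and 46.1 CPM in sham, 55.0, 54.4 and 56.5 CPM in SNI and 55.2, 59.5 and 53.1 CPM in SNI+LDN193189. Every injured library was thus above every sham library in Nr3c2. Hsd11b1, whose enzyme regenerates active hormone inside cells, read 34.3, 38.5 and 42.9 CPM in sham, 41.4, 36.0 and 43.5 CPM in SNI and 32.4, 38.7 and 33.8 CPM in SNI+LDN193189. The hormone-inactivating Hsd11b2 never passed 0.172 CPM, and the carrier protein gene Serpina6 was listed at 0 throughout. Of 20 listed receptor, chaperone, cofactor and hormone-handling genes 18 were tested, and against SNI the compound group was higher in 7 and lower in 11, with a median of -0.02 on the log2 scale and none at an unadjusted p under 0.05. Among them H6pd, whose enzyme feeds cofactor to that of Hsd11b1, differed by 0.16 (SE 0.15). None of the 18 was called in any of the 3 comparisons by edgeR.

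Fkbp5 encodes a co-chaperone that lowers the receptor's affinity for hormone, a short feedback loop that makes it a widely used readout of receptor activity. It lies on chromosome 17 (28399094 to 28517527, minus strand, GRCm38), where small unnamed transcripts overlap it on both strands. Fkbp5 read 30.7, 34.1 and 28.3 CPM in sham and 29.1, 29.7 and 29.8 CPM in SNI, and 32.8, 38.7 and 50.2 CPM in SNI+LDN193189. SNI libraries agreed within 1 CPM, whereas the compound libraries were all higher and widely spread. Means were 40.6 ± 8.89 (SD, n = 3) against 29.5 ± 0.408 (SD, n = 3) CPM, a log2 fold change of 0.46 (SE 0.13). Without SNI+LDN193189 replicate 3 it was 0.27. Sham replicate 2 overlapped the compound group, and the difference from sham was 0.39 (SE 0.13), or 0.20 without compound replicate 3.

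Tsc22d3 encodes GILZ, the leucine zipper protein through which glucocorticoids restrain NF-kappa-B and AP-1. The gene is on chromosome X (140539528 to 140600659, minus strand). It read 152, 178 and 157 CPM in sham, 167, 147 and 159 CPM in SNI and 186, 194 and 225 CPM in SNI+LDN193189. Each compound library lay above all 6 others. Taken singly, 5.71% of all genes tested had that arrangement against SNI and 6.81% against sham. The share of genes with both at once was not counted. The mean was 202 ± 20.7 (SD, n = 3) CPM with the compound, 158 ± 10.3 (SD, n = 3) CPM in SNI and 162 ± 14.1 (SD, n = 3) CPM in sham. The log2 fold change was 0.36 (SE 0.08) against SNI and 0.32 (SE 0.08) against sham, or 0.27 and 0.23 without SNI+LDN193189 replicate 3.

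Sgk1 encodes a kinase of the AKT family that controls ion channels and transporters and that oligodendrocytes raise under stress hormone. It lies on chromosome 10 (21882184 to 21999903, plus strand) and has several start sites. Sgk1 varied more than any other gene of the set. Its levels were 43.2, 143 and 58.2 CPM in sham, 99.5, 45.6 and 84.2 CPM in SNI and 128, 193 and 392 CPM in SNI+LDN193189. Compound libraries all exceeded the SNI libraries, but sham replicate 2 lay above compound replicate 1, and replicates of each group differed by 2.18-fold or more. Means were 238 ± 138 (SD, n = 3) CPM with the compound, 76.4 ± 27.7 (SD, n = 3) CPM in SNI and 81.5 ± 53.9 (SD, n = 3) CPM in sham. The log2 fold change against SNI was 1.64 (SE 0.64), and 1.07 without SNI+LDN193189 replicate 3.

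The start sites of the set were searched on both strands for short motifs, in windows from 250 bases before to 50 bases after a start. RefSeq (GRCm38.p6) gave 18 such windows for 9 of the 10 genes, Zbtb16 being the one without an entry. Sgk1 alone had 6 of the windows, so counts of windows lean on that gene. The full palindromic glucocorticoid response element, AGAACA followed by 3 unspecified bases and TGTTCT, was in 1 of the 18 and in 3 of 32851 windows genome-wide (0.00913%). The one was an internal start of Sgk1, with the element 189 bases before it. The shorter core ACANNNTGT, which the full element contains, was in 3 of the 18 (one of Mt1 and a pair of Sgk1) and in 6.85% of all windows. Counted by gene, it was in 2 of the 9 and in 2135 of 27025 genes. The single arm AGAACA, which the full element also contains, was in 4 of the 18 (Sgk1 and Tsc22d3) and in 19.0% of all windows. The E-box CACGTG of clock factors was in 2 of the 18 (Sgk1 and Fkbp5) and 7.15% of all, and the start-proximal TATAAA in 3 (a pair of Sgk1 and one of Errfi1) and 13.6%. A match is a letter pattern and not a binding site, and most known receptor sites lie farther from starts than these windows reach. The matched stretch of Sgk1 is printed because it carries the full element, in capitals, at chr10:21993671-21993760 on the plus strand, outside annotated exons of the gene.
Sgk1: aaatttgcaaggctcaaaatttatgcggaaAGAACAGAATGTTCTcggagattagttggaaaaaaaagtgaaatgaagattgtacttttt

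Zbtb16 (PLZF) and Klf9 encode zinc finger transcription factors, Klf9 being a direct receptor target with a role in myelination. Zbtb16, on chromosome 9 (48654297 to 48836222, minus strand), read 28.2, 37.2 and 21.3 CPM in sham, 24.0, 25.03 and 33.1 CPM in SNI and 41.0, 32.1 and 70.9 CPM in SNI+LDN193189. Compound replicate 2 lay below SNI replicate 3, so the groups overlapped. The log2 fold change against SNI was 0.81 (SE 0.35) with all libraries and 0.42 without compound replicate 3. Klf9, on chromosome 19 (23141226 to 23168134, plus strand), read 122, 164 and 148 CPM in sham, 143, 145 and 153 CPM in SNI and 145, 174 and 203 CPM in SNI+LDN193189. Its compound and SNI ranges overlapped, with a log2 fold change of 0.25 (SE 0.14), or 0.12 without compound replicate 3. Klf9 carried the only match to the FOXO motif GTAAACA in the set, 100 bases before its start, a motif in 3.65% of all windows.

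Pdk4 encodes the kinase that shuts pyruvate dehydrogenase and so turns cells from glucose to fat as fuel. On chromosome 6 (5483351 to 5496309, minus strand), it read 20.9, 19.0 and 19.9 CPM in sham, 19.0, 17.8 and 14.6 CPM in SNI and 22.8, 16.6 and 30.3 CPM in SNI+LDN193189. Compound replicate 2 fell inside the SNI range, and replicate 3 carried the group. The log2 fold change of 0.44 (SE 0.19) against SNI became 0.20 without that library. The relative Pdk2, a kinase of the same step, read 81.5, 82.1 and 80.7 CPM with the compound and 70.1 to 75.7 CPM in the other 6 libraries, a narrower and non-overlapping difference of 0.16 (SE 0.05) against SNI. Of 12 tested FOXO and PPAR genes of the fuel switch, 8 were higher and 4 lower against SNI with a median of 0.04, and none was called in any of the 3 comparisons by edgeR. The transcription factor gene Foxo1 differed by -0.26 (SE 0.13) between SNI and sham, and the thioesterase gene Acot1 read 8.31 to 9.98 CPM with the compound against 9.80 to 11.6 CPM in SNI.

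Cdkn1a encodes p21, which halts the cell cycle and answers p53 as well as the receptor. Its pattern was unlike the others. On chromosome 17 (29090976 to 29100727, plus strand), it read 27.7, 55.2 and 61.1 CPM in sham, 26.4, 26.0 and 26.4 CPM in SNI and 39.1, 34.3 and 47.2 CPM in SNI+LDN193189. SNI libraries were nearly equal and lowest, compound libraries were intermediate, and sham was the most spread. The highest sham libraries were also those of the group with the most nerve root RNA. Their summed markers were 2225 and 6114 CPM, against 937 CPM in sham replicate 1. In the compound group these markers summed to 1947, 967 and 842 CPM in replicates 1 to 3. Cdkn1a was highest there in replicate 3, which had the least. The log2 fold change was 0.61 (SE 0.30) for SNI+LDN193189 against SNI and -0.87 (SE 0.30) for SNI against sham. The latter was called when sham replicate 1 was left out (-1.15, edgeR adjusted p = 0.000656). It shrank to -0.33 when nerve root and meningeal markers were a term in the fit. The part of nerve root RNA in the levels of Cdkn1a was not tested. Of 13 other p53 targets, 8 were higher and 5 lower against SNI with a median of 0.06, and none was called in any comparison by edgeR. The largest differences were in genes under 4 CPM, with 0.72 (SE 0.37) for Eda2r and -0.47 (SE 0.23) for Bbc3 against SNI and -0.86 (SE 0.43) for Psrc1 against sham, while Phlda3 differed by 0.11 (SE 0.07) against sham. Ccng1 read 63.4, 71.0 and 57.6 CPM in SNI against 69.2 to 78.9 CPM in sham. The sister inhibitor Cdkn1b was also highest in sham replicate 3 (125 CPM), and read 72.2 to 73.9 CPM in SNI.

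Errfi1 encodes MIG6, a feedback inhibitor of the EGF receptor. It lies on chromosome 4 (150853919 to 150868892, plus strand), overlapped by an antisense gene. Reads of that gene cannot be told apart from its own, since the strand setting used in counting was not given. Genes on the opposite strand also overlap Fkbp5, Cdkn1a and Mt2, so the same limit holds for them. Errfi1 read 72.7, 82.0 and 75.5 CPM in sham, 68.3, 72.7 and 71.2 CPM in SNI and 79.6, 81.1 and 109 CPM in SNI+LDN193189. The compound and SNI libraries did not overlap, with a log2 fold change of 0.35 (SE 0.11), or 0.18 without compound replicate 3. In the pathway it inhibits, 4 of 10 listed EGF receptor genes were higher and 6 lower against SNI with a median of -0.004, and none was called in any of the 3 comparisons by edgeR. The receptor gene Erbb2 differed by 0.51 (SE 0.41) and the inhibitor gene Spred1 by -0.09 (SE 0.06) against SNI, and Erbb3 by -0.36 (SE 0.20) against sham. Errfi1 had the only full cAMP response element TGACGTCA of the set, 51 bases before one of its starts, a motif in 1.79% of all windows. That stretch is shown because it holds the element, in capitals, at chr4:150854999-150855058 on the plus strand.
Errfi1: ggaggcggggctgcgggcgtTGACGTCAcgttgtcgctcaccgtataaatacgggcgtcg

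The metallothioneins Mt1 and Mt2 bind zinc and copper and are raised by glucocorticoids, metals and oxidants. They lie 5513 bases apart on chromosome 8 (Mt2 at 94172664 to 94173568, Mt1 at 94179082 to 94180327, plus strand). The genes are related in sequence, so some reads may be split between them and each value may be uncertain. How many reads they share was not tested. Mt1 read 125, 171 and 129 CPM in sham, 149, 124 and 147 CPM in SNI and 155, 167 and 194 CPM in SNI+LDN193189. Mt2 read 81.0, 130 and 94.2 CPM in sham, 94.2, 83.3 and 104 CPM in SNI and 116, 124 and 160 CPM in SNI+LDN193189. In both genes all compound libraries were above all SNI libraries and sham replicate 2 reached into the compound range. The log2 fold change against SNI was 0.29 (SE 0.14) for Mt1 and 0.51 (SE 0.21) for Mt2, or 0.20 and 0.35 without compound replicate 3. The brain form Mt3, which metals do not induce, differed by 0.04 (SE 0.07). Of 11 metal and oxidant response genes, 7 were higher and 4 lower against SNI with a median of 0.04, and none was called in any comparison by edgeR. The metal-sensing factor gene Mtf1 differed by 0.06 (SE 0.07), while Nqo1, an oxidant defence enzyme, read 12.7, 14.8 and 13.4 CPM with the compound and 8.79 to 11.7 CPM in the other 6 libraries. The glutathione genes Gclm and Gclc differed from SNI by 0.13 (SE 0.06) and 0.08 (SE 0.06), the heme oxygenase gene Hmox1 by 0.11 (SE 0.23) and the sulfiredoxin gene Srxn1 by -0.04 (SE 0.06). The start regions of the pair are shown because of their matches to receptor and metal motifs. Mt1 had the core ACANNNTGT 92 bases before its start. Mt2 had the metal response core TGCGCNC 128 bases before its own, and only this spelling of the core was searched. Mt1, Mt2 and Sgk1 each held that core in a single window (3 of the 18), and 15.4% of all windows held it. In Mt1 and Sgk1 it lay after the start, inside an annotated exon. Capitals mark ACANNNTGT in the stretch of Mt1 (chr8:94178957-94179056) and TGCGCNC in that of Mt2 (chr8:94172450-94172549), both on the plus strand.
Mt1: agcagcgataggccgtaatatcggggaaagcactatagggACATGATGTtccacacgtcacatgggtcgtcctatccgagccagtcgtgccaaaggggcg
Mt2: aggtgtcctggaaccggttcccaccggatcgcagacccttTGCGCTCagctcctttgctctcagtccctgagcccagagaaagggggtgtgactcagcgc

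Most of the 10 genes were highest in the same library. SNI+LDN193189 replicate 3 was the highest of the 9 libraries in 9 of the 10 genes, the exception being Cdkn1a, and the highest of its group in all 10. It exceeded the mean of the other compound libraries by 1.18-fold (Tsc22d3) to 2.45-fold (Sgk1), with a median of 1.34-fold. In the sham group replicate 2 was the highest in 8 of 10, the exceptions being Pdk4 and Cdkn1a, at 0.931 to 2.83 times the mean of the other sham libraries. Each gene's log2 CPM was standardised over the 9 libraries and averaged over the 10 genes. The mean score was 1.89 in compound replicate 3, 0.40 and 0.26 in compound replicates 2 and 1, and 0.49 in sham replicate 2. The other 5 libraries lay between -0.84 and -0.40, the SNI libraries among them. One sham library thus scored above 2 of the 3 compound libraries.

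**Figure D2:**
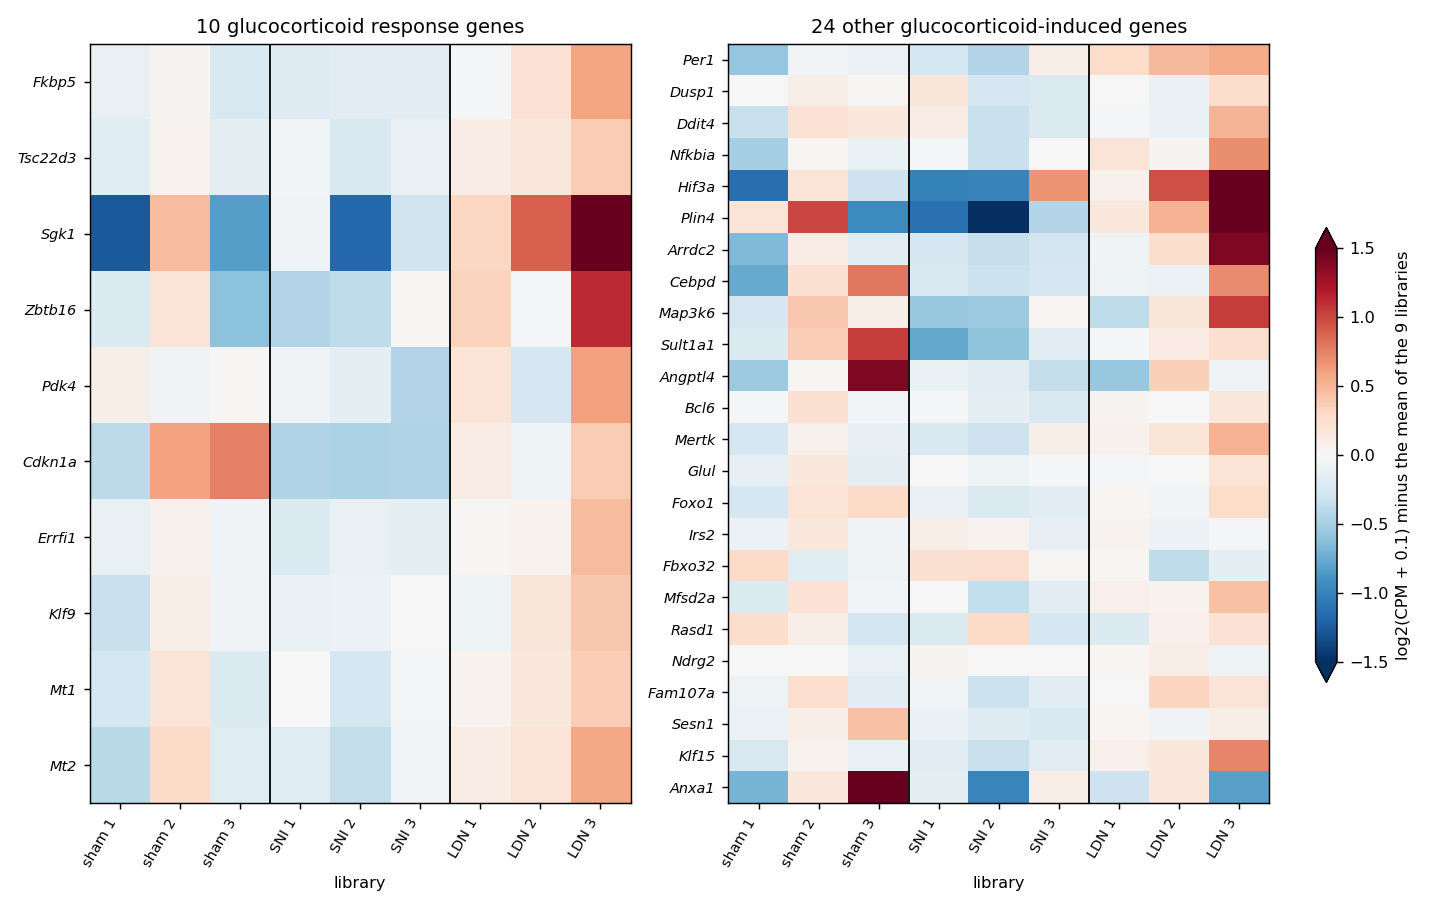
Heat map of log2(CPM + 0.1) minus the gene's mean over the 9 libraries (colour, red above and blue below), for the 10 genes (left) and 24 other glucocorticoid-induced genes (right), with libraries in columns and LDN standing for SNI+LDN193189. The column of SNI+LDN193189 replicate 3 is the highest of its group in all 10 rows on the left and in 18 of 24 on the right.

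Leaving out SNI+LDN193189 replicate 3 kept all 10 genes above SNI and reduced the median log2 fold change from 0.45 to 0.27. The fold change shrank by more than 1.5 times in 6 of the 10, from 1.27 times for Cdkn1a to 2.20 times for Pdk4. The 7 genes without overlap were also without overlap in compound replicates 1 and 2 alone, since replicate 3 was the highest of its group in each. In that library summed red cell markers were 128 CPM, against 272 and 282 CPM in the other compound libraries. Summed oligodendrocyte (27892 CPM) and microglia (316 CPM) markers were the highest of the 9 libraries there. Summed astrocyte markers (6762 CPM) lay below SNI replicate 1 (6788 CPM), with Gfap at its highest (1537 CPM). The part of these differences in the result was not tested.

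**Figure D3:**
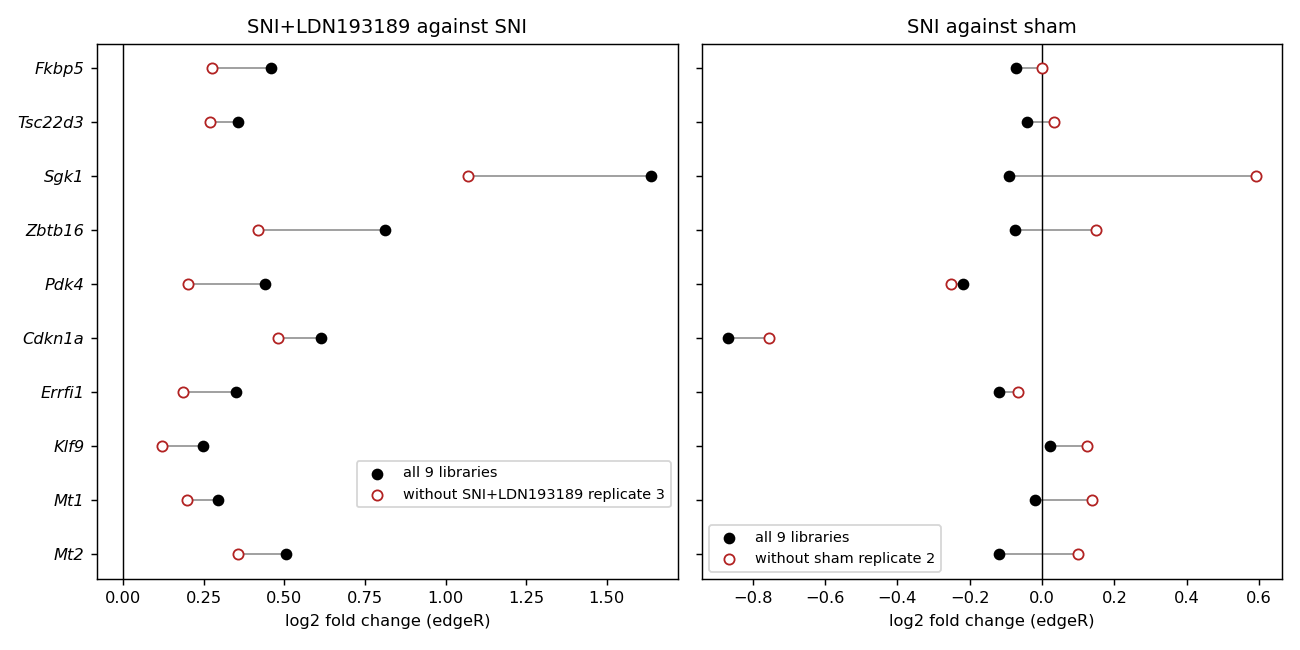
Log2 fold change of each gene with all libraries and with 1 library left out, for SNI+LDN193189 against SNI without compound replicate 3 and for SNI against sham without sham replicate 2. All 10 genes stay above 0 in the former, and 6 of 10 change sign in the latter.

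Fitted differences between SNI and sham ran from -0.22 to 0.02 in this set, apart from Cdkn1a at -0.87. Only Klf9 was above 0 and 9 genes were below, with a median of -0.08 on the log2 scale, where 50.1% of all genes tested were above 0. In 2 genes, Cdkn1a and Errfi1, each SNI library lay below each sham library, an arrangement seen in 4.43% of all genes tested. No gene of the set was called by edgeR, nor any gene of all those tested (0%), while 972 genes (5.33%) had an unadjusted p under 0.05, Cdkn1a the one of the set, and DESeq2 called 22. Without sham replicate 2 the count above 0 became 7 of 10 and the median 0.07, with Sgk1 going from -0.09 to 0.59 and 6 genes changing sign. Against sham, the compound group was higher in 9 of 10 genes, all but Cdkn1a, with 48.0% of all genes tested above 0 and a median of 0.29. Without compound replicate 3, 8 of 10 were higher and the median was 0.19. Only Tsc22d3 showed no overlap with sham, against 6.81% of all genes tested, and edgeR called none of the 10 (3 genes of all tested, 0.0164%). DESeq2 called 73 genes, Tsc22d3 among them (adjusted p = 0.0384). Both contrasts with the compound use the same compound libraries, so their values are given side by side only.

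**Figure D4:**
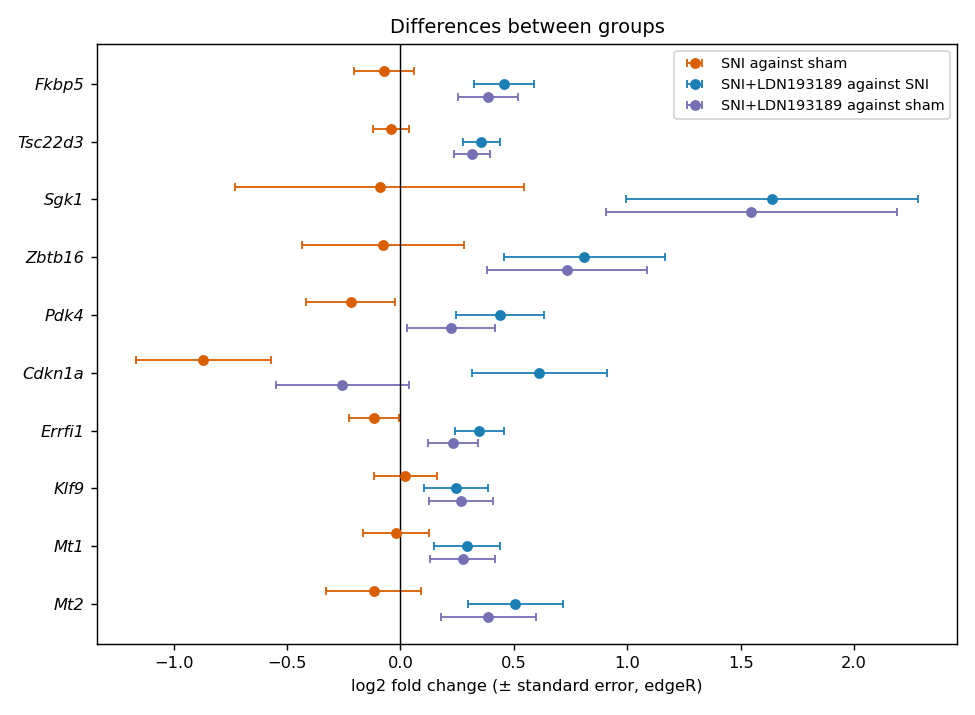
Log2 fold change of the 10 genes with its standard error in the 3 comparisons (edgeR, 3 libraries a group). SNI+LDN193189 is above SNI in all 10 genes. Fitted values for SNI against sham run from -0.22 to 0.02 except in Cdkn1a, with a standard error as large as 0.64 in Sgk1.

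A second list held 26 other genes that glucocorticoids induce, of which 24 were tested, Zfp36 being listed at 0 in all libraries and Trim63 too low. This list too was written with earlier results known. Against SNI the compound group was higher in 22 and lower in 2, with a median of 0.32. In 12 of the 24 every compound library lay above every SNI library (5.71% of all genes tested), and 9 were higher at an unadjusted p under 0.05 (1.69% of all). None was called by edgeR, while DESeq2 called Per1 (adjusted p = 0.0351). Without compound replicate 3 the list had 21 higher of 25 tested and a median of 0.19. Per1, a clock gene with its own response elements, read 23.6, 34.3 and 33.1 CPM in sham, 29.3, 25.9 and 37.5 CPM in SNI and 42.8, 49.3 and 52.1 CPM in SNI+LDN193189. The compound libraries were thus close together and above all others in Per1, with a log2 fold change of 0.64 (SE 0.18). Klf15, a factor that works with the receptor on amino acid metabolism, read 35.4, 43.3 and 38.5 CPM in sham, 37.4, 33.1 and 37.0 CPM in SNI and 44.0, 46.5 and 69.3 CPM in SNI+LDN193189. Mertk, the receptor for engulfing dead cells, read 42.0 CPM in compound replicate 3 and 23.6 to 33.2 CPM elsewhere.

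Compound replicate 3 also led this wider list. It was the highest of the 9 libraries in 12 of 24 genes, which it was in 10.5% of all genes tested, and the highest of its group in 18 of 24, against 32%. The most extreme, chosen after their values were seen, were the lipid droplet coat gene Plin4 at 33.3 CPM against 1.67 to 12.3 CPM elsewhere, Arrdc2 at 43.2 CPM against 10.2 to 19.5 CPM, and Hif3a at 23.4 CPM against 3.57 to 15.7 CPM. Sham replicate 2 was the highest of its group in 15 of 24 genes, against 33.7% of all genes. SNI against sham gave 6 higher and 18 lower with a median of -0.15, or -0.06 without sham replicate 2, -0.09 without sham replicate 3 and -0.23 without sham replicate 1. In sham replicate 3, 6 of the 24 genes had their highest value, which 17.5% of all genes tested had there. Summed nerve root (6114 CPM), meningeal (1286 CPM) and leukocyte markers (272 CPM) also peaked in that library. Genes highest there included Sult1a1, a phenol sulphotransferase, at 33.1 CPM against 9.42 to 20.7 CPM elsewhere, and the stress gene Sesn1 at 64.7 CPM against 40.7 to 50.7 CPM. With nerve root and meningeal markers as a term in the fit, the list's median was -0.07 for SNI against sham and 0.16 for SNI+LDN193189 against sham. The part of the leukocyte markers was not tested. Against sham the compound group was higher in 17 and lower in 7 (median 0.07), or 11 higher of 25 without compound replicate 3.

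Glucocorticoids can reset the daily clock, whose genes were listed too. With the count filter and all 9 libraries, edgeR called none of them for SNI+LDN193189 against SNI or for SNI against sham. Other settings called Per2 for SNI+LDN193189 against SNI. These were DESeq2 (adjusted p = 0.00068), limma-voom (0.0173), edgeR without a filter (0.00105) and edgeR without SNI replicate 3 (0.0202). DESeq2 called Per1 there too. Of 16 tested clock genes 12 were higher and 4 lower in SNI+LDN193189 than in SNI (median 0.15), and 12 and 4 against sham (median 0.34). Against sham edgeR called 2 of them, Per2 (log2 fold change 0.76, SE 0.11) and Bmal1 (-0.83, SE 0.12), both with adjusted p = 0.0374. With single libraries left out edgeR called Bmal1 in 3 of 9 fits (adjusted p = 0.0028 to 0.319) and Per2 in 2 of 9 (0.00482 to 0.319). Without compound replicate 3 neither was called, at -0.84 and 0.68. With all libraries DESeq2 called both against sham, and Per1, Npas2, Tef, Bhlhe41, Hlf and Nr1d2 besides. Per2, a repressor in the clock's feedback loop, read 18.6, 15.6 and 17.1 CPM in sham, 17.1, 16.2 and 21.5 CPM in SNI and 26.8, 28.1 and 31.9 CPM in SNI+LDN193189. Bmal1, the activator that peaks opposite to Per2, read 29.1, 28.5 and 24.1 CPM in sham, 24.1, 20.96 and 16.6 CPM in SNI and 15.9, 14.6 and 15.4 CPM in SNI+LDN193189. In both genes the 3 compound libraries were close together, replicate 3 included. The partner repressor Cry1 read 23.6, 25.3 and 24.4 CPM with the compound against 15.9 to 21.2 CPM elsewhere, and the output factor Hlf differed by 0.22 (SE 0.09) between SNI and sham. Dbp, an output of the clock, read 14.5, 14.5 and 24.3 CPM in sham, 20.7, 23.3 and 41.5 CPM in SNI and 40.5, 47.5 and 36.3 CPM in SNI+LDN193189. The hour at which tissue was taken is not stated, and hour of day and treatment cannot be told apart here.

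Of 14 tested family relatives of the set, 12 were higher and 2 lower in the compound group than in SNI, and 11 were higher than in sham, with medians of 0.05 and 0.06 and none called in any of the 3 comparisons by edgeR. Sgk2 read 7.01 to 7.89 CPM with the compound and 7.03 to 7.43 CPM in SNI, against 4.81 to 5.79 CPM in sham, so both injured groups lay above sham. Sgk3 was 44.2 CPM in compound replicate 3 and 24.9 to 30.1 CPM elsewhere, the same single-library lead as the set.

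Likeness over the 9 libraries was measured as the Pearson correlation of log2(CPM + 0.5) with the mean score of the 10 genes. Only genes of at least 5 CPM were compared. The nearest genes outside the set were Adipor2 (r = 0.986), Klf15 (0.986), Nt5c3 (0.972), Ppp1r7 (0.966), Arrdc2 (0.964), Itpk1 (0.960), Pcolce2 (0.958), Klf13 (0.956), Shmt1 (0.951) and Bcl2l1 (0.947). These are descriptions over 9 libraries that share compound replicate 3 as their extreme point. Adipor2, the adiponectin receptor gene, read 127, 175 and 130 CPM in sham, 133, 118 and 132 CPM in SNI and 172, 158 and 241 CPM in SNI+LDN193189, so it had the same high libraries. For single genes of the set the nearest were Itpk1 for Fkbp5 (0.954) and Errfi1 (0.965), Pcolce2 for Tsc22d3 (0.992), Arl4d for Sgk1 (0.986), Rhou for Zbtb16 (0.946), AI597479 for Pdk4 (0.952), Arpc1a for Cdkn1a (0.959), Galnt15 for Klf9 (0.966), Sgk1 for Mt1 (0.980) and Sdc4 for Mt2 (0.980).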

How the data were processed

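Per the labels, libraries kept the strand of poly(A)-selected RNA and were sequenced in 150 base paired reads. The authors deposited whole-number read counts per gene and FPKM values derived from them, for the build mm10 per the submitters' processing notes; the aligner, counter, annotation and strand setting are not given in the sources used here. Column letters L, S and N were read as SNI+LDN193189, sham and SNI from their names; if S stood for SNI, directions between sham and SNI would swap. Sprr1a served as a check of that reading.

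The counts were tested with edgeR 4.0.16 (R 4.3.3): filterByExpr, TMM factors, robust quasi-likelihood F tests in 1 fit of all 9 libraries (6 residual degrees of freedom), Benjamini-Hochberg adjustment over 18245 genes, called under 0.05. The biological coefficient of variation was 0.132 and the median standard error of a log2 fold change 0.12. DESeq2 1.42.0 and limma 3.58.1 were alternatives. The pipeline was tested on simulated data.

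The 10 genes and all lists were chosen with earlier results of these data known. Named genes were the 10, the 2 of each list with the smallest unadjusted p in each comparison, the receptor genes and the genes most alike; any others were named after their values were seen. Some genes that this rule picks are not reported here. Gene positions are from GENCODE M21 and start-site sequences from RefSeq (GRCm38.p6), searched for fixed motifs. The printed stretches were chosen after the matches were seen.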

Additional observations from a re-analysis of the deposited data

How the results depend on the processing

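In all 22 alternatives the 10 genes stayed above SNI in SNI+LDN193189, with a median of 0.27 to 0.52. The number of genes called in that comparison, 1, became 6 with DESeq2, 2 with limma-voom, without a filter and with the nerve root term, 3 with only the 2 groups fitted, 0 with limma on log2 FPKM at either pseudocount, and 0 to 2 with single libraries left out. For SNI against sham (0) it became 22 with DESeq2, 16 with the nerve root term and 0 to 38 with single libraries left out, 38 being without sham replicate 1. For SNI+LDN193189 against sham (3) it became 73 with DESeq2, 1 with limma on either FPKM scale, 30 without a filter, 28 with the nerve root term and 1 to 17 with single libraries left out. The count of the 10 genes above sham in SNI (1) became 2 on either FPKM scale and 0 to 7 with single libraries left out. The other induced genes above sham were 3 to 9 of the list in SNI and 11 to 19 in SNI+LDN193189 with single libraries left out. An alternative chosen after seeing the data left out sham replicate 2 and compound replicate 3 together: genes called became 0 against SNI and 0 against sham, and 6 of the 10 genes were above sham in SNI. The causes of these shifts were not tested. Library totals ran from 33432776 to 37190467 counts, and each group had 3 libraries; which of these limits the values more was not tested.

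The labels do not say whether replicate numbers pair the samples. Same-numbered libraries of different groups correlated at -0.11 to 0.14 in their deviations, 2 of 9 pairs over 0.1. Libraries with different numbers correlated at -0.18 to 0.13. The library with the same number was the best match in 7 of 18 choices. Whether same-numbered samples shared a litter, day or batch cannot be told from these correlations. With a replicate block, genes called against SNI fell to 0 and 2 of the 10 genes were above sham in SNI.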
